A study of Mus musculus with 16 samples.

Results

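Collagen genes were examined in the chromatin accessibility data of mouse small cell lung cancer (SCLC), a neuroendocrine (NE) lung tumor in which Notch-active, Hes1-positive cells take on a non-NE state. The members were the 44 protein-coding genes whose symbol is Col, a number, a and a number, together with the listed ATAC-seq peaks whose centre lay nearer to a transcription start site of one of them than to that of any other protein-coding gene. They held 202 of the 80367 listed peaks, and 40 of the 44 genes had at least 1. ATAC-seq inserts sequencing adaptors into open DNA with a transposase, so that reads pile up into peaks where chromatin is accessible.

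Both groups came from TKO;Hes1 GFP/+ mice. These carry floxed alleles of Rb, p53 and p130 (both copies of each) that were deleted by an adenovirus expressing Cre from the CMV promoter (Ad-CMV-Cre) given into the airways, and they express GFP from 1 allele of Hes1. The CMV promoter does not restrict Cre to 1 lung cell type, the tumors of a mouse were pooled, and the labels give no age. By the study's methods, tumors were taken several months after induction in young adult mice. Hes1-GFP positive (GFP-high, non-NE) and Hes1-GFP negative (GFP-negative, NE) cancer cells were sorted, and the labels give 4 pairs of libraries from 3 mice, each library run on 2 lanes. The mouse with 2 pairs is described as a technical replicate, so at most 3 animals stand behind each group. For each peak, its position, the list it stands in and the authors' mean normalized read count over all libraries were used. The authors' own fold changes and p-values, which the lists also hold, were not. A peak that was more accessible in GFP-high than in GFP-negative cells is called opened, and a peak that was less accessible is called closed. The depth of each library and its own values are unknown here, so no spread over animals is given and no test was run here. The authors listed only peaks past an adjusted p of 0.001 and a log2 fold of 1 in either direction, and peaks that did not pass were not analysed here.

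Collagens are triple-helical proteins of the extracellular matrix. Fibrillar collagens such as types I, III and V form the load-bearing fibrils of connective tissue and are made mostly by fibroblasts, whereas type IV collagen forms the sheet-like network of basement membranes on which lung epithelium and endothelium sit. Others lie on fibril surfaces (the FACIT collagens), form short-chain networks (types VIII and X), bead-like microfilaments and anchoring fibrils (types VI and VII) or span the cell membrane (types XIII, XVII, XXIII and XXV).

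Opened and closed collagen peaks were close to even in number. Of the 202 peaks, 97 were opened and 105 closed, a share opened of 48.0% (95% Wilson interval, 41.2 to 54.9%), beside 50.8% of all 80367 listed peaks. All intervals here cover counting error only, and neighbouring peaks of 1 gene are not independent of each other. As the populations were measured in bulk, a smaller share of cells with an accessible site and less access per cell cannot be told apart. Of the 44 genes, 11 had opened peaks only (25.0%, beside 24.5% of all protein-coding genes), 13 had closed peaks only (29.5%, beside 14.4%) and 16 had both (36.4%, beside 27.6%). No listed peak was assigned to Col3a1, Col5a2, Col6a4 or Col9a3. A listed peak was present for 90.9% of the collagen genes, beside 66.5% of all 21951 protein-coding genes. Collagen genes are long, with a median span of 114 kb beside 17.4 kb for all protein-coding genes, and of the 5149 protein-coding genes with a span between the quartiles of the collagen spans (35.5 to 144 kb) 83.7% had a listed peak. Of the same 5149 genes, 22.4% had opened peaks only, 17.3% closed peaks only and 44.0% both.

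**Figure D1:**
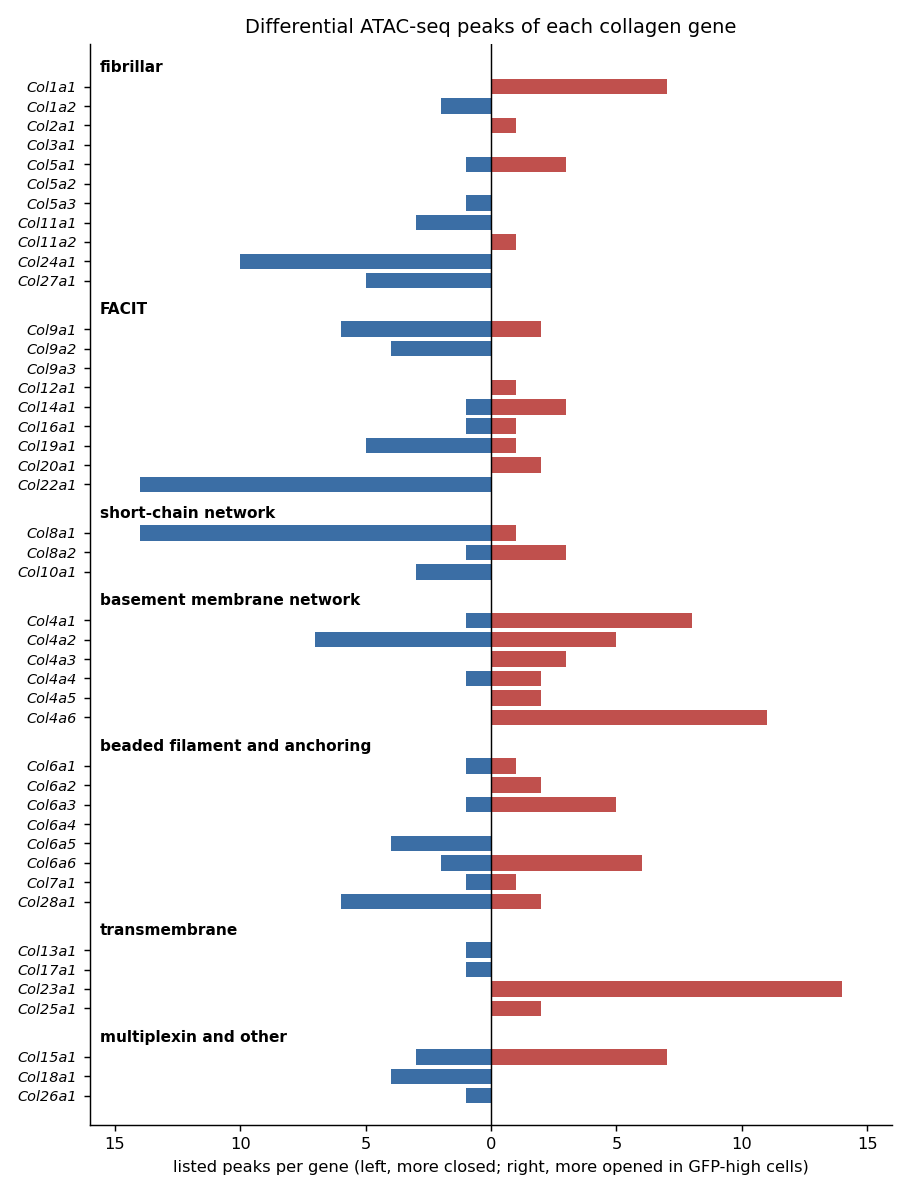
Bars give the number of listed ATAC-seq peaks per collagen gene, to the right for peaks more opened and to the left for peaks more closed in GFP-high cells, with the genes grouped by the structure of the protein. Col23a1 had 14 opened and no closed peaks, Col22a1 had 14 closed and no opened peaks, and the type IV genes Col4a3, Col4a5 and Col4a6 had opened peaks only.

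The cell labels were set beside lists of marker genes, which were chosen with earlier results of these data known. The counts are to be read beside the 50.8% of all listed peaks that were opened and the 66.5% of all protein-coding genes with a listed peak. Of 71 peaks assigned to NE markers, 11 were opened (15.5%). Insm1 held 28 of the closed ones, and without it 11 of 43 were opened (25.6%, 14.9 to 40.2%). Chga had 8 opened and 6 closed peaks, and Syp and Dll3 had none. Of 59 peaks assigned to Hes1, Rest and Notch2, 42 were opened (71.2%), 26 of them at Hes1. As the cells were sorted on GFP from the Hes1 locus, this is no independent check of the labels. Without Hes1, 16 of 22 were opened (72.7%, 51.8 to 86.8%). Peaks of club cell markers (22 of 26 opened), of alveolar type 1 markers (23 of 26) and of alveolar type 2 markers (18 of 19) were mostly opened. Among other cell types that tumors hold, fibroblast markers had 5 opened and 20 closed peaks, with peaks at 6 of 10 genes and none at Pdgfrb, Lum, Fbn1 or Tcf21. Smooth muscle and pericyte markers had 19 opened and 4 closed peaks at 7 of 7 genes, 8 of the opened ones at Notch3, which is also a Notch receptor. Without Notch3, 11 of 15 were opened (73.3%, 48.0 to 89.1%). Endothelial markers had 16 opened and 54 closed peaks at 7 of 7 genes, 23 of the closed ones at Cdh5. Without Cdh5, 14 of 45 were opened (31.1%, 19.5 to 45.7%). Leukocyte markers had 16 opened and 7 closed peaks at 6 of 8 genes, 11 of the opened ones at Ptprc. Without Ptprc, 5 of 7 were opened (71.4%, 35.9 to 91.8%). By the study's methods, the leukocyte, endothelial and erythroid surface proteins stained for in the sort served for negative selection, and CD24 for positive selection. Whether cells of these other types remained, and their part in the collagen peaks, was not tested.

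In each structural group, the opened and the closed peak with the highest mean count were chosen, and 12 of these 14 windows lay clear of annotated exons. The 7 below, each the central 200 bases of its peak, come from the opened type IV, type V and type VI loci and from closed sites of types I, VIII, XVII and XVIII. Letters come from the RefSeq GRCm38.p6 assembly (mm10). Capitals mark matches, on either strand, to the short strings searched for in all peaks, namely CATTCC for TEAD factors, TGANTCA for AP-1, TGTTTAC for FOX, TGTGGTT for RUNX, CACTTNA for NKX2, CATTGT for SOX, GTGGGAA for RBPJ, GGGCGG for SP and KLF, and TTGGCA for NFI.
Col4a4, opened, chr1:82577789-82577988, plus strand: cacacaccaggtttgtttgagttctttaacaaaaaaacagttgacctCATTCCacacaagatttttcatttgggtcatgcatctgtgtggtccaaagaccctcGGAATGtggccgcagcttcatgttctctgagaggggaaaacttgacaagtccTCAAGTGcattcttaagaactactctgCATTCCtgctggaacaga
Col5a1, opened, chr2:27939590-27939789, plus strand: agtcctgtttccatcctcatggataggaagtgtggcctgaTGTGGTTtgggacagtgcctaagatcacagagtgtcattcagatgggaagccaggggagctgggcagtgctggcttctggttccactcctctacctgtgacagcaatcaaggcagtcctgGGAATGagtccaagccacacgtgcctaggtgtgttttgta
Col6a6, opened, chr9:105764313-105764512, plus strand: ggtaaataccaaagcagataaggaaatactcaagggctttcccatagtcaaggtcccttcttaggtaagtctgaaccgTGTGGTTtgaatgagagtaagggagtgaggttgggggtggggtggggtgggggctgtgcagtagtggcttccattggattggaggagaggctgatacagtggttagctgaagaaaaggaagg
Col1a2, closed, chr6:4397982-4398181, plus strand: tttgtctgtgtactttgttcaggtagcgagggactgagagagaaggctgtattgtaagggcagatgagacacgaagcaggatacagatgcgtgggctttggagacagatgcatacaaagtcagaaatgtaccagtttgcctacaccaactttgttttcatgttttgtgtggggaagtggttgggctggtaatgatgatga
Col8a1, closed, chr16:57686141-57686340, plus strand: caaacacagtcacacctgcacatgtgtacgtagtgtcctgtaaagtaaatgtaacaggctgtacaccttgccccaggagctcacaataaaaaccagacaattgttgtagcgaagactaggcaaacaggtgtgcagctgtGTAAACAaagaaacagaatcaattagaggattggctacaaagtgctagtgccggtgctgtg
Col18a1, closed, chr10:77111869-77112068, plus strand: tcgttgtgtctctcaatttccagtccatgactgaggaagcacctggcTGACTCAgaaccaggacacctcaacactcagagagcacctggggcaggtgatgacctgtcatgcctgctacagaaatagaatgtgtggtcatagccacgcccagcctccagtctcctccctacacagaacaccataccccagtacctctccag
Col17a1, closed, chr19:47654972-47655171, plus strand: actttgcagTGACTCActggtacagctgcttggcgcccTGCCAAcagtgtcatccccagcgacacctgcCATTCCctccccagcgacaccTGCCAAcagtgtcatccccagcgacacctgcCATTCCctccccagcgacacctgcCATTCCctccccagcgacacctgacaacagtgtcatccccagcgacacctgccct
The Col4a4 window held the TEAD string 3 times and the NKX2 string once. The Col5a1 window held the RUNX and the TEAD string, the Col6a6 window the RUNX string, the Col8a1 window the FOX string and the Col18a1 window the AP-1 string. None of the 9 strings stood in the Col1a2 window. In the Col17a1 window, the 3 TEAD and 2 NFI matches fell in a short sequence unit that repeats across the window, beside 1 AP-1 match. Of the opened windows not printed, those of Col8a2, Col14a1 and Col15a1 held none of the strings.

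Type IV collagen, the basement membrane network, stood furthest towards opened peaks among the groups with over 20 peaks. Its 6 genes held 31 opened and 9 closed peaks, a share opened of 77.5% (62.5 to 87.7%). The 6 genes lie as 3 head-to-head pairs that share a promoter region, and the pairs differed from each other.

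The pair Col4a5 and Col4a6, which encodes the alpha5 and alpha6 chains found together in epithelial basement membranes, had 13 opened and no closed peaks. Their start sites on the X chromosome are 1.31 kb apart, and each gene had its own opened promoter peak. The Col4a5 peak (chrX:141475267-141475509) was centred in the first exon, with a mean count of 45.4, and the Col4a6 peak (chrX:141474026-141474142) had a mean count of 14.5. The other 10 opened peaks of Col4a6 lay in its introns, 34.5 to 223 kb downstream of the start, with mean counts of 7.39 to 61.7. The second opened peak of Col4a5 lay in an intron 58.2 kb downstream of its start, at a mean count of 94.0.

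The pair Col4a3 and Col4a4, whose alpha3 and alpha4 chains join alpha5 in the alveolar and glomerular basement membranes, had 5 opened peaks and 1 closed. A single opened promoter peak (chr1:82586505-82587430, mean count 223) covered both start sites, which are 72 bp apart. The intronic Col4a4 peak whose sequence is printed above (chr1:82577442-82578335, mean count 262) lay 8.96 kb into the gene. The closed peak lay in another Col4a4 intron at a mean count of 20.5.

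The pair Col4a1 and Col4a2, which encodes the common chains of nearly all basement membranes, had no listed peak within 1 kb of its start sites, 21 bp apart. Its peaks were split by side. In the body of Col4a2, 8 peaks were opened and 1 was closed, with mean counts of 12.0 to 134, whereas in the body of Col4a1, 2 were opened and 5 closed. As the annotated starts overlap, each peak in the body of Col4a2 lies nearest to the start of Col4a1, 18.9 to 81.0 kb away, and each in the body of Col4a1 nearest to that of Col4a2. The remaining 5 peaks lay beyond the 3′ end of Col4a1, 117 to 143 kb from the start of Col4a2, 3 of them opened and 2 closed.

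**Figure D2:**
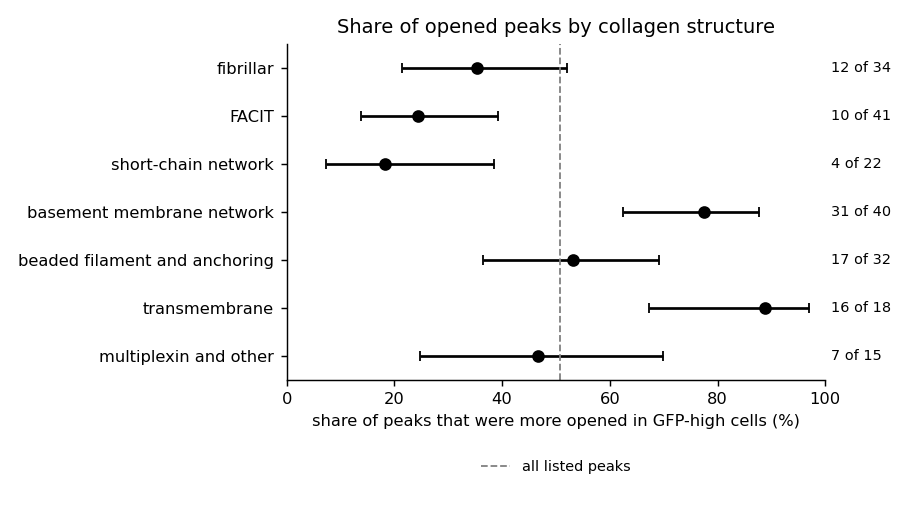
Points give the share of peaks that were more opened in GFP-high cells (x axis, in %) for each structural group of collagens, horizontal bars the 95% Wilson interval from the number of peaks, and the dashed line the share in all listed peaks (50.8%). The intervals of the basement membrane and transmembrane groups lie above that line, those of the FACIT and short-chain groups below it, and the other 3 reach across it.

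Fibrillar collagens had 12 opened and 22 closed peaks (35.3%, 21.5 to 52.1%), and the chains of 1 protein did not share a direction. Type I collagen is built from the products of Col1a1 and Col1a2. Col1a1 had 7 opened peaks and no closed peak, and Col1a2 had 2 closed peaks and no opened one. The opened Col1a1 promoter peak (chr11:94936865-94937294, mean count 83.4) was centred 0.855 kb downstream of the start, a second opened peak (42.1) followed at 1.25 kb, and the other 5 lay 19.5 to 63.1 kb upstream with mean counts of 11.3 to 62.6. For Col1a2, the closed promoter peak (chr6:4506307-4506487) had a mean count of only 11.4, while the closed peak 107 kb upstream (chr6:4397705-4398457) had 390, the highest of all collagen peaks. Col3a1, which is usually co-expressed with the type I genes in fibroblasts, had no listed peak.

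All 7 Col1a1 peaks lie in the part of chromosome 11 from 50 Mb on, where 79.9% of all listed peaks were opened. Without that part, the fibrillar share was 18.5% (8.18 to 36.7%), from 5 opened and 22 closed peaks. Other choices moved it the other way, to 52.9% (31.0 to 73.8%) with peaks of a mean count of 20 or more only and to 50% (12 of 24 peaks) without Col24a1, so that no direction of the fibrillar group as a whole held. The 14 peaks of Col23a1 also lie there. All 21 collagen peaks of the part were opened, and outside it 76 of 181 collagen peaks were (42.0%), beside 49.3% of all listed peaks outside it.

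Among the other fibrillar genes, Col24a1 was closed throughout, with 10 closed peaks over 158 kb. They included a pair at the start site (chr3:145292326-145292629, mean count 35.0, and chr3:145292718-145292922, mean count 19.3) and reached their highest count (99.4) 24.1 kb upstream. Col27a1 had 5 closed peaks in its introns with mean counts of 6.95 to 31.3. Col11a1, a minor chain of cartilage fibrils, had 3 closed peaks, 1 of them at its promoter (chr3:114030378-114030478, mean count 10.2), whereas the only listed peak of its partner Col11a2 was an opened promoter peak (chr17:34039015-34039166, mean count 20.4). Col5a1, which regulates the diameter of type I fibrils, had 3 opened intronic peaks and 1 closed upstream peak, and the strongest of the opened ones (chr2:27939365-27940013, mean count 237) is printed above. Col5a3 had 1 closed intronic peak (74.3), and Col2a1, the cartilage collagen, had 1 opened peak 22.4 kb upstream (52.6).

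FACIT collagens, which decorate the surface of fibrils or basement membrane zones, had 10 opened and 31 closed peaks (24.4%, 13.8 to 39.3%). Col22a1, a collagen of tissue junctions, accounted for 14 of the closed ones and had no opened peak. Its promoter peak (chr15:72034121-72034509, mean count 179) was the strongest closed promoter peak of any collagen gene, with a neighbour at 1.03 kb upstream (70.4). Another 5 closed peaks formed a group 168 to 198 kb upstream inside the noncoding gene Gm49457, the strongest with a mean count of 168, and the remaining 7 had 4.07 to 44.2. Without Col22a1, the other FACIT genes had 10 opened and 17 closed peaks (37.0%, 21.5 to 55.8%), an interval that reaches across the 50.8% of all listed peaks.

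Type IX collagen is a heterotrimer of the Col9a1, Col9a2 and Col9a3 chains. Col9a2 had 4 closed peaks, including a promoter peak (chr4:121039715-121040198, mean count 73.4), Col9a1 had 2 opened and 6 closed peaks, and Col9a3 had none. Of the 6 closed peaks of Col9a1, 3 lie inside the neighbouring Col19a1. Col19a1 itself had 1 opened and 5 closed peaks, 1 of the latter at a start site (chr1:24586542-24586698, mean count 11.2). Col12a1 and Col16a1, which are associated with fibrils in many soft tissues, had opened promoter peaks (chr9:79718535-79718958, mean count 136, and chr4:130047533-130047969, mean count 193), and Col16a1 also had a closed intronic peak (23.9). Col14a1 had 3 opened peaks and 1 closed, all upstream of its start, and the strongest (chr15:55223710-55224537, mean count 244) lies in an intron of Deptor, 83.6 kb away. Col20a1 had 2 opened intronic peaks with mean counts of 12.6 and 17.5.

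Short-chain network collagens had 4 opened and 18 closed peaks (18.2%, 7.31 to 38.5%), and the chains of type VIII, a collagen of vascular and Descemet's membranes, differed. Col8a1 had more peaks than any other collagen gene, 14 closed and 1 opened. A pair of closed peaks stood at its start (chr16:57754568-57754878, mean count 52.5, and chr16:57755211-57755524, mean count 55.0), and 11 peaks lay upstream, the farthest at 314 kb with a mean count of 165. The intronic peak printed above (chr16:57685897-57686583, mean count 249) was the strongest. Col8a2 had 3 opened peaks and 1 closed, among them an opened promoter peak (chr4:126286574-126287056, mean count 109) and an opened intronic peak (158). Col10a1, the collagen of hypertrophic cartilage, had 3 closed peaks, all of them in introns of Nt5dc1, in which the gene lies, and the strongest (chr10:34356453-34356899, mean count 230) was 33.3 kb from its start. Without Col8a1, the group kept 3 opened and 4 closed peaks, too few to set a direction (42.9%, 15.8 to 75.0%).

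**Figure D3:**
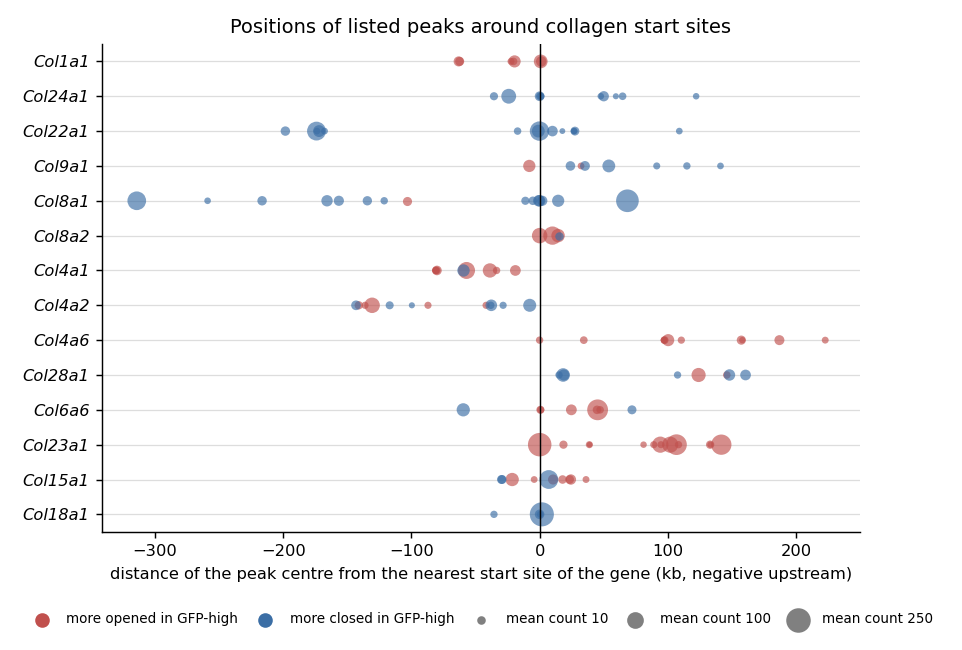
Each point is a listed peak of 1 of 14 collagen genes, placed by the distance of its centre from the gene's nearest start site (x axis, in kb, negative upstream), with the area growing with the authors' mean normalized read count. Col22a1, Col24a1 and Col18a1 show closed peaks only, Col1a1, Col4a6 and Col23a1 opened peaks only, and the closed peaks of Col8a1 reach 314 kb upstream.

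Beaded filament and anchoring collagens were mixed, with 17 opened and 15 closed peaks (53.1%, 36.4 to 69.1%). Within type VI, which forms microfilaments around cells, Col6a3 had 5 opened peaks (12.3 to 31.6) in its body and 1 closed peak (59.7) upstream, and Col6a2 had 2 opened peaks. Col6a1 had a closed promoter peak (chr10:76725976-76726261, mean count 38.8) and an opened peak beyond its 3′ end (8.62). The neighbours Col6a5 and Col6a6 on chromosome 9 went opposite ways. Col6a5 had 4 closed peaks, 2 of them at its start (chr9:105960630-105960760, mean count 11, and chr9:105961097-105961333, mean count 21.7). Col6a6 had 6 opened and 2 closed peaks, with 2 opened promoter peaks (chr9:105827120-105827337, mean count 12.9, and chr9:105827350-105827594, mean count 20) and the strong opened intronic peak printed above (chr9:105764037-105764788, mean count 208). Col7a1, which forms the anchoring fibrils below stratified epithelia, had an opened promoter peak (chr9:108953360-108953622, mean count 14.5) and a closed exonic peak (10.4). Col28a1 had 2 opened and 6 closed peaks, all in its introns, with mean counts of 14.1 to 89.0.

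Transmembrane collagens had 16 opened and 2 closed peaks (88.9%, 67.2 to 96.9%), of which Col23a1 supplied 14 opened ones. Its promoter peak (chr11:51289547-51290410) had a mean count of 269, the highest among opened collagen peaks, and the other 13 lay in its introns up to 142 kb downstream, the strongest with 205 and 197. Without Col23a1, 2 opened peaks of Col25a1 (8.78 and 12.5), 1 closed peak of Col13a1 (13.8) and 1 closed peak of Col17a1 (102) remained. Col17a1 encodes the hemidesmosome component that fastens epithelial cells to the basement membrane.

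In the last group, the multiplexin Col15a1 had 7 opened and 3 closed peaks, and the related Col18a1, whose C-terminal end gives rise to endostatin, had 4 closed peaks. Col15a1 had no listed promoter peak, and its strongest peak was a closed one in an intron (168), ahead of an opened one 21.4 kb upstream (77.2). Col18a1 had a closed peak at each of 2 start sites (chr10:77113653-77113791, mean count 33.5, and chr10:77166068-77166197, mean count 9.94) and the strong closed intronic peak printed above (chr10:77111615-77112321, mean count 283), 1.74 kb from the nearer one. Col26a1 had 1 closed intronic peak (16.3).

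At promoters, the share of opened peaks was lower for collagen genes than for protein-coding genes at large. A promoter peak had its centre within 1 kb of a start site. Collagen genes had 26 such peaks, 12 opened and 14 closed, a share opened of 46.2% (28.8 to 64.5%), beside 74.3% of the 10359 listed promoter peaks of all protein-coding genes. With peaks of a mean count of 20 or more only, 8 opened and 8 closed were left, and within 3 kb of a start site there were 13 and 21. Away from promoters, 85 of 176 collagen peaks were opened (48.3%, 41.0 to 55.6%), beside 47.3% of all such peaks. An opened promoter peak was present at 11 of 44 collagen genes (25.0%), beside 26.5% of protein-coding genes and 31.5% of those with a span between the collagen quartiles. A closed promoter peak was present at 10 (22.7%), beside 8.42% of protein-coding genes and 10.4% of those span-matched genes. No collagen gene had both, which was also rare among all protein-coding genes (0.743%).

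The opened promoter peaks of collagen genes had mean counts of 12.9 to 269 with a median of 64.4, beside a median of 169.0 for all opened promoter peaks. The closed ones had 9.94 to 179 with a median of 27.6, beside 40.7 for all closed promoter peaks. Collagen promoter peaks were thus lower in mean count than the typical listed promoter peak of either list, although both ranges are wide. Over all collagen peaks, the median was 22.1 for opened (quartiles 13.0 and 77.2) and 23.6 for closed peaks (14.1 and 52.5), beside 40.7 and 25.8 for all listed peaks.

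**Figure D4:**
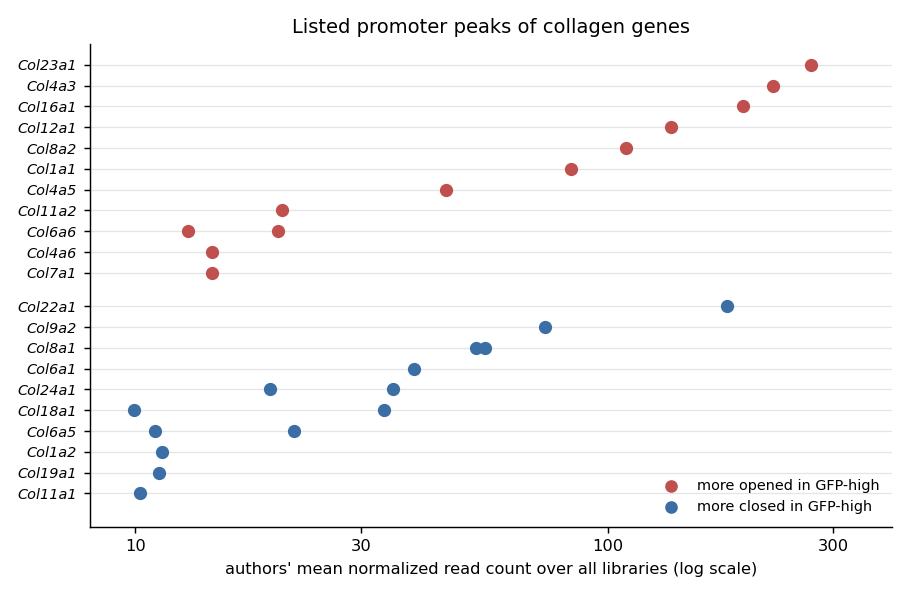
Each point is a listed peak centred within 1 kb of a start site of the collagen gene named on the left, placed by the authors' mean normalized read count over all libraries (x axis, log scale). Of the opened promoter peaks that of Col23a1 is highest at 269, and of the closed ones that of Col22a1 at 179.

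Most collagen peaks lay in introns of annotated genes, counting other genes and noncoding ones. Introns held 65 of the 97 opened peaks (67.0%) and 71 of the 105 closed ones (67.6%), beside 45.0% and 51.5% of all opened and all closed peaks. Of these, 52 opened and 44 closed peaks lay in the body of their own collagen gene. The shares of all peaks are not matched for gene span. The collagen gene's own body held 63 opened and 57 closed peaks. Another 26 peaks, 11 opened and 15 closed, lay in the body of another protein-coding gene only. Most of them lay in another collagen gene (Col4a1, Col4a2, Col6a5 or Col19a1), and the rest in Nt5dc1, Deptor or Zmpste24. For every peak outside the body of its own collagen gene, the assignment rests on distance alone. The median distance to the start site was 41.8 kb for opened and 28.5 kb for closed collagen peaks, beside 17.5 kb and 42.4 kb for all opened and all closed peaks.

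Peaks of 1 gene tended to stand in the same list. Of 162 pairs of neighbouring peaks assigned to the same collagen gene, 134 were in the same list (82.7%), beside 74.8% of the 65769 such pairs of all protein-coding genes. The longest uninterrupted runs were the 14 closed peaks of Col22a1, the 14 opened peaks of Col23a1, the 11 opened peaks of Col4a6 and the 10 closed peaks of Col24a1. These genes supplied 13, 13, 10 and 9 of the pairs, all in the same list. The share without them was not computed, so the difference from all genes is not shown to be a trait of collagen genes at large.

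The short strings were counted in the central 200 bp of each peak. The RUNX string was present in 14 of 97 opened collagen peaks (14.4%, 8.8 to 22.8%) and 3 of 105 closed ones (2.86%, 0.976 to 8.07%), beside 8.33% of all opened and 3.6% of all closed peaks. The TEAD string, bound by the partners of YAP, was present in 23.7% (16.4 to 33.1%) of opened and 16.2% (10.4 to 24.4%) of closed collagen peaks, beside 18.1% and 8.77% of all. The AP-1 string was present in 18.6% (12.1 to 27.4%) of opened and 25.7% (18.3 to 34.8%) of closed collagen peaks, beside 10.6% and 26.4%. In closed collagen peaks the TEAD share, and in opened ones the AP-1 and RUNX shares, had intervals that began above the share of all peaks of the same list, 3 of the 18 shares compared. With the strings searched in the whole peak, none of these 3 did. The share was then 17.1% for TEAD in closed collagen peaks (11.1 to 25.5%), beside 12.0% of all closed peaks. In opened collagen peaks it was 18.6% for AP-1 (12.1 to 27.4%), beside 15.1%, and 15.5% for RUNX (9.60 to 24.0%), beside 11.6%.

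The FOX string was present in 4.12% of opened and 13.3% of closed collagen peaks, beside 6.84% and 9.7% of all. The SOX string was present in 6.19% and 11.4%, beside 9.07% and 17.3%. For NKX2 the shares were 22.7% and 12.4%, beside 18.6% and 14.9%, and for NFI 21.6% and 17.1%, beside 18% and 13.5%. For RBPJ, the DNA-binding partner of Notch, they were 7.22% and 2.86%, beside 5.74% and 4.02%, and for SP and KLF 14.4% and 7.62%, beside 17.4% and 7.62%. Each of these intervals held the share of all peaks of the same list. In all 80367 listed peaks, the shares were 13.5% for TEAD, 18.4% for AP-1, 8.25% for FOX, 6.0% for RUNX, 16.8% for NKX2, 13.1% for SOX, 4.89% for RBPJ, 12.6% for SP and KLF and 15.8% for NFI. Strings of different factors shared bases in 9 collagen windows, most often AP-1 with NKX2 (3 windows), and 24 opened (24.7%) and 33 closed (31.4%) collagen windows held none of the strings, close to the 26.5% and 30.2% of all opened and all closed peaks. A match is a run of letters and not a measured binding site.

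**Figure D5:**
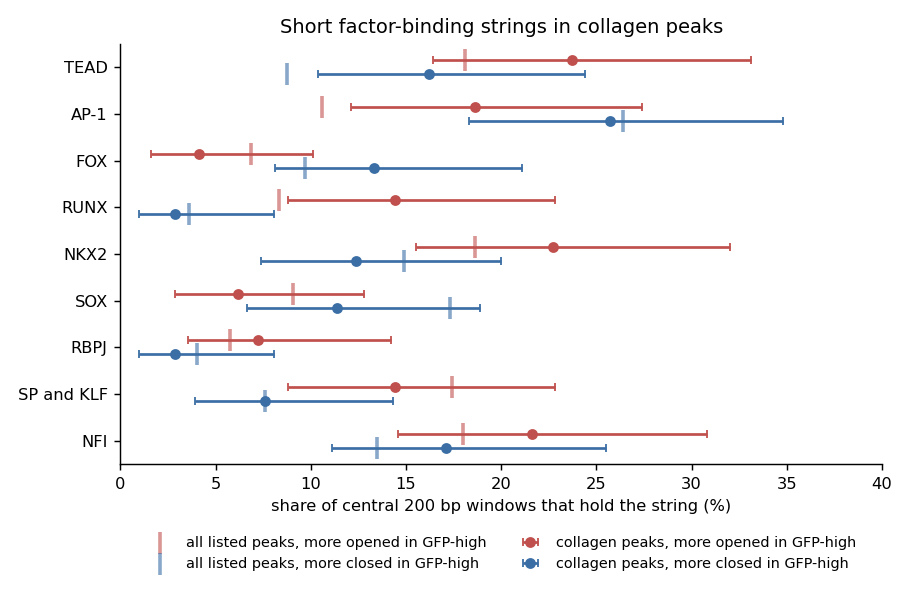
Points give the share of opened and closed collagen peaks whose central 200 bp hold each string (x axis, in %), bars the 95% Wilson interval, and vertical ticks the share in all listed peaks of the same list. The RUNX string stood in 14.4% of opened and 2.86% of closed collagen peaks.

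Genes that make, cut and sense collagen were counted in the same way. Of 21 folding and cross-linking enzymes, 15 had a listed peak (beside 66.5% of all protein-coding genes), with 33 opened and 23 closed peaks (58.9%, 45.9 to 70.8%, an interval that holds the 50.8% of all listed peaks). Opened promoter peaks stood at 7 of them, beside 26.5% of all protein-coding genes, namely P4ha2 and P4hb (subunits of prolyl 4-hydroxylase), P3h4, Ppib, the collagen chaperone Serpinh1 and the cross-linking oxidases Loxl1 and Loxl3, with a mean count of up to 988 at P4hb. P4ha2, P4hb and P3h4 lie in the part of chromosome 11 named above, with 10 opened and 1 closed peaks there. Closed promoter peaks stood at 2, beside 8.42% of all protein-coding genes, namely Colgalt2, a galactosyltransferase of collagen with 8 closed peaks and no opened one, and Loxl4.

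Procollagen processing genes had 9 opened and 22 closed peaks (29.0%, 16.1 to 46.6%) at 7 of 8 genes, 14 of the closed ones at Tll1, a tolloid-like protease. Without Tll1, 7 of 15 were opened (46.7%, 24.8 to 69.9%). Bmp1, the main procollagen C-proteinase, had 3 opened peaks, 1 at its promoter, and 1 closed. Collagen receptors had 30 opened and 11 closed peaks (73.2%, 58.1 to 84.3%) at 6 of 9 genes, beside 50.8% of all listed peaks and 66.5% of all protein-coding genes, and 14 of the opened ones were assigned to Mrc2, the endocytic collagen receptor, which lies in the part of chromosome 11 described above. Without Mrc2, 16 of 27 were opened (59.3%, 40.7 to 75.5%). Ddr1, a collagen-binding tyrosine kinase of epithelia, had 5 opened peaks, 3 of them at promoters, and 4 closed peaks away from its promoters, with mean counts of up to 299 and 161.

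Genes of collagen degradation and its inhibitors had 35 opened and 12 closed peaks (74.5%, 60.5 to 84.7%) at 8 of the 10 genes found in the annotation, beside the same 50.8% and 66.5%. Timp3, an inhibitor of metalloproteinases, held 19 of the opened peaks. Timp2 had 5 opened peaks and 1 closed, all in the mostly opened part of chromosome 11. Without Timp3, 16 of 24 peaks of the list were opened (66.7%, 46.7 to 82.0%). Mmp14 had 5 opened peaks and none closed, and the collagenase Mmp13 had 5 closed peaks and none opened. The basement membrane partners Nid2, Agrn and Sparc had opened peaks only (3, 4 and 9), with those of Sparc in the same part of chromosome 11, Hspg2 had 1 of each, and Nid1, which links laminin to type IV collagen, had 4 closed peaks only, the strongest with a mean count of 323. The list as a whole had 17 opened and 5 closed peaks (77.3%, 56.6 to 89.9%), and 8 of 13 were opened without Sparc (61.5%, 35.5 to 82.3%). The intervals without the leading gene hold the 50.8% of all listed peaks for the processing, receptor, degradation and basement membrane lists.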

How the data were processed

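ATAC-seq libraries of sorted Hes1-GFP positive and Hes1-GFP negative cells (16 runs, 8 libraries, 4 per group) were analysed from the 2 peak lists deposited by the authors. Per the labels and the study's methods, the authors aligned reads to mm10 with Bowtie2 2.3.4.1, removed duplicates, called peaks with MACS2, merged the peaks of all samples, counted reads per peak and compared the groups with DESeq2 1.28.1. Whether lanes or the technical replicate were summed is not given in the sources used here. The signal deposited by the authors per peak is the mean normalized read count over all libraries. The lists also hold the authors' fold changes, standard errors, statistics and p-values, which were not used. No values per library were used, so no test was run, and the depth per library is unknown.

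Each peak centre was matched to the closest start site among basic GENCODE transcripts of protein-coding genes. The body of a gene ran over its annotated span. Strings were searched without mismatches on both strands in GRCm38.p6. Shares carry 95% Wilson intervals. Scripts used pandas 2.3.3, numpy 2.4.6 and pysam 0.24.0 under Python 3.11.15, and the assignment, interval and search steps were tested on simulated data. Genes with promoter peaks, the gene with the most peaks in each group and the 5 peaks of each list with the highest mean count are described by position or in full, and the other genes that are named were chosen after their values were seen. The members and lists were chosen with earlier results of these data known.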

Additional observations from a re-analysis of the deposited data

How the results depend on the processing

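No paired analysis was possible because the lists hold no values per library. Over all alternatives the share of opened collagen peaks stayed between 42.0 and 52.2%. Of 175 alternative values, 164 stayed within the main interval or within 1.5 times the main count. Some of these could not change, as leaving out chromosome 11 from 50 Mb on or Col8a1 cannot move a group without peaks there. A value within the interval can also read differently, as for the FACIT and the 3 string shares below. The count covers the collagen results only. Outside it, without the leading gene, the processing share rose from 29.0 to 46.7% and the alveolar type 2 share from 94.7 to 100%. Both left their main intervals. With peaks of a mean count of 20 or more only, 112 collagen peaks and 8 closed promoter peaks were left, and the share opened was 52.9% in the fibrillar and 35.3% in the beaded filament and anchoring group. Without chromosome 11 from 50 Mb on, it was 18.5% in the fibrillar and 50% in the transmembrane group. Without Col8a1, which had the most peaks, it was 42.9% in the short-chain group. Without the gene with the most peaks in each group, a choice added after seeing the data, it was 92.9% in the basement membrane group (without Col4a2), 42.9% in the short-chain group (without Col8a1), 50% in the transmembrane group (without Col23a1) and 0% of 5 peaks in the multiplexin group (without Col15a1), while the fibrillar (50% without Col24a1), FACIT (37.0% without Col22a1) and beaded filament (without Col28a1, tied with Col6a6) shares stayed within their intervals. The transmembrane, short-chain and FACIT shares each rest on 1 gene, since without it the interval holds the 50.8% of all listed peaks. All opened peaks of the multiplexin group were those of Col15a1. Leaving out the leading gene of the other lists was likewise chosen after seeing the data. The 3 string shares above those of all peaks were not so in whole peaks. Across all alternatives the basement membrane share ran from 74.3 to 92.9% and the FACIT share from 24.4 to 37.0%. As no library's depth is known, the precision behind a single peak's mean count cannot be given.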
